A study of Mus musculus with 16 samples.

Results

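The transcripts described here are those of 31 genes of the cardiac sarcomere and of its turnover, listed by gene symbol, with no measured value in the rule, though earlier results of these data were known when the list was made. All 31 symbols were found among the 24982 entries of the count table, and all 31 were among the 13775 genes with enough counts to be tested. By role they are 6 thin filament genes (Tnnt2, Tnni3, Tnnc1, Tpm1, Tmod1, Lmod2), 5 genes of the thick filament and titin (Myl2, Myl3, Mybpc3, Ttn, Myo18b) and 11 Z-disc genes (Actn2, Tcap, Myoz2, Ldb3, Nebl, Myot, Nexn, Mypn, Pdlim3, Pdlim5, Fhl2). The others are 3 M-band genes (Myom1, Myom2, Obsl1), 2 genes of myosin folding and assembly (Smyd1, Unc45b) and 4 ubiquitin ligase genes (Trim63, Trim54, Trim55, Fbxo32).

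RNA sequencing of the left ventricle was done in 16 C57BL/6 mice, with 1 library per mouse. Of these, 8 were Tln2-null and 8 were Tln2-null with a Tln1 knockout specific to cardiac fibroblasts (called knockout below), each with 4 males and 4 females. Every mouse, in both genotypes, was given tamoxifen by intraperitoneal injection on 5 days and, starting 2 weeks after that, 8 weeks of angiotensin II (AngII) delivered by osmotic pump. AngII is the peptide hormone of the renin-angiotensin system, which raises blood pressure and loads the heart. Since no mouse was without AngII or carried intact Tln2 by its label, neither can be compared here. No source used here names the driver of the fibroblast deletion or the age of the mice. The labelled deletion is in fibroblasts, whereas the 31 genes are mainly genes of cardiomyocytes, so their transcripts are measured in other cells than those the deletion is meant for. In bulk tissue, fewer cells of a type and less RNA per cell cannot be told apart.

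Libraries held 11161766 to 19221673 counts, and levels are given as CPM, counts scaled to the size of the library after adjustment by the trimmed mean of M values. Tln1, the targeted gene, ranged from 251 to 322 CPM in Tln2-null and from 221 to 323 CPM in knockout ventricles, which hold many cells besides fibroblasts. Tln2 was counted at 55.6 to 76.8 CPM in all 16 libraries. The labels do not say which part of either gene was removed, so these levels do not check the alleles. Several libraries stood apart before any comparison. The clock gene Arntl measured 28.4 CPM in Tln2-null replicate 8 and 27.1 CPM in knockout replicate 8, where the other 14 libraries had 3.66 to 8.44 CPM, and Tln2-null replicate 5 had the heat shock gene Hspa1a at 85.9 CPM. In 4 libraries labelled female (Tln2-null replicate 4 and knockout replicates 3, 5 and 7), Y-linked genes had counts. Some of the genotype, sex and title number results below are also given without these libraries. Cardiomyocyte genes outside the 31 (9 markers, among them Myh6, Atp2a2 and Ryr2) summed to 48053 to 56984 CPM. Of 12 skeletal muscle markers, Myh4 and Myf6 had 0 counts in every library and 5 others were below the filter on low counts. Among 6 atrial markers, Sln, Bmp10 and Myl7 were below that filter. Nppa of the same list was at 290 to 1899 CPM, while Myl4 and Nr2f1 reached at most 5.61 and 4.43 CPM.

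The sarcomere is the contractile unit of striated muscle. Thin filaments of actin, covered by tropomyosin and the troponin complex, are anchored at the Z-disc, while thick filaments of myosin are joined at the M-band, and titin spans the distance between them. Its proteins are replaced continuously: chaperones fold myosin, and muscle ubiquitin ligases mark proteins for the proteasome. MuRF1 (Trim63) and atrogin-1 (Fbxo32) are the classic transcripts of muscle atrophy, known as targets of FOXO transcription factors, and FHL2, nexilin and the MuRF proteins bind titin or the filaments near it.

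To show what the 31 genes share in sequence, the 250 bases before the annotated start were searched in RefSeq promoters (GRCm38.p6), which covered 24 of the 31 genes with 32 windows, since some genes have several starts. The genes not covered were Nexn, Myo18b, Myom2, Trim55, Tcap, Fbxo32 and Myot. The windows below are printed 5′ to 3′ on the strand of the gene, up to the base before the RefSeq gene. They show a ubiquitin ligase promoter with a FOXO motif, a pair of troponin promoters and the promoters of titin and of cardiac myosin-binding protein C. As printed, those of Trim63 and Tnnc1 hold 250 bases, and those of Tnnt2, Ttn and Mybpc3 hold 231, 240 and 220. Capitals mark matches to the motifs named here for each window, on either strand; E-box and NKX2-5 matches, which are frequent, are left in lower case. In Trim63 (chr4:134314870-134315119, plus strand) these are, in order, the FOXO motif, the MCAT motif and the TATA box. In Tnnt2 (chr1:135836084-135836314, plus strand) they are the GATA motif and the MCAT motif. In Tnnc1 (chr14:31208062-31208311, plus strand) they mark the MCAT motif, and in Ttn (chr2:76982558-76982797, minus strand) and Mybpc3 (chr2:91117894-91118113, plus strand) the MEF2 motif.
Trim63: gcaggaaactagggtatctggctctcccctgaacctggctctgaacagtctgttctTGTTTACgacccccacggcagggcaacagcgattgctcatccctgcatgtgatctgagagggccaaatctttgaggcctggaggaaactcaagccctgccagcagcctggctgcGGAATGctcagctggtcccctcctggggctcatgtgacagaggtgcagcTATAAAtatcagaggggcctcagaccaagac
Tnnt2: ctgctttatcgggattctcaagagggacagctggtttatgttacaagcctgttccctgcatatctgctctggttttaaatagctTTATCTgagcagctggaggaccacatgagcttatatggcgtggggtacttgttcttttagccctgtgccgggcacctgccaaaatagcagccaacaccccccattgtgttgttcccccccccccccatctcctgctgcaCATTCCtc
Tnnc1: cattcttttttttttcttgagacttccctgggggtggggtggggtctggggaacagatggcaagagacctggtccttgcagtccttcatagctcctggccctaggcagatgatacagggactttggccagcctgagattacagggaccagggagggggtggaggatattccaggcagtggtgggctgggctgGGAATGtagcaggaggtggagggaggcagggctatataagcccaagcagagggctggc
Ttn: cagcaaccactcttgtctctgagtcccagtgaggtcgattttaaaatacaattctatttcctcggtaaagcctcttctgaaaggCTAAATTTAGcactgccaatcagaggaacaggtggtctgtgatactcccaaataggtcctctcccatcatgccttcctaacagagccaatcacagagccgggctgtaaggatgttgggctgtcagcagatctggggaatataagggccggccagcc
Mybpc3: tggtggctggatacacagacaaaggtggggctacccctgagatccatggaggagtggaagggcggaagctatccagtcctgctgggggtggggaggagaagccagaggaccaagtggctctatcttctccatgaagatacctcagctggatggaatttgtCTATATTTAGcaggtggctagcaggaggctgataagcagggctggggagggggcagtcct

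The CArG box, the site of serum response factor, was matched in 7 of the 32 windows (21.9%) against 1.47% of all 32851 RefSeq windows of the same length. These windows belonged to Fhl2, Ldb3, Myl3, Myom1 and Nebl. The MEF2 motif, bound by myocyte enhancer factors, was matched in 4 windows (12.5% against 2.92%), those of Fhl2, Mybpc3, Myoz2 and Ttn. The MCAT motif CATTCC, bound by TEAD factors, was in 10 (31.2% against 12.6%). The GATA motif AGATAA was in 6, from 5 genes (18.8% against 9.99%). The E-box CANNTG was found in 78.1% of these windows and 66.2% of all, and the NKX2-5 motif AAGTG in 25.0% and 40.7%. The FOXO motif GTAAACA was in 1 window, that of Trim63 (3.12% against 3.17%), which was also the only one of the 32 with TATAAA (7.59% of all). Both strands were searched, except for TATAAA, and the printed matches of different motifs did not overlap. A match describes letters and is not evidence of binding.

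Together the 31 genes took 5.03 ± 0.164% of all counts in Tln2-null and 5.16 ± 0.268% in knockout ventricles (SD, n = 8 each), and between 4.62% and 5.44% in single libraries. Levels between genes are compared per kilobase of exon (GENCODE M21, all exons of a gene joined), a length that understates the level of genes with many isoforms such as Ttn and Nebl. Of the thin filament, troponin C (Tnnc1) measured 1622 ± 125, troponin I (Tnni3) 1170.2 ± 96.4, tropomyosin (Tpm1) 715 ± 59.5 and troponin T (Tnnt2) 579 ± 41.1 CPM per kilobase (SD, n = 16). Leiomodin-2 (Lmod2, which lengthens thin filaments) and tropomodulin (Tmod1, which caps them) measured 446 ± 60.4 and 125 ± 11.2. The troponin C transcript was thus the highest of the 31 by this scale, although it differed from the next, the light chain Myl3, by less than the SD of either.

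Of the thick filament genes, the essential and regulatory myosin light chains Myl3 and Myl2 measured 1596 ± 132 and 1341 ± 123 CPM per kilobase, and cardiac myosin-binding protein C (Mybpc3) 1327 ± 85.2. Titin (Ttn), with 117 kilobases of joined exons, measured 47.9 ± 3.72 per kilobase although it took 5601 CPM, and the unconventional myosin Myo18b measured 58.6 ± 3.33. At the Z-disc, telethonin (Tcap, which joins the ends of titin) at 1235 ± 258, Fhl2 at 943 ± 81.4 and alpha-actinin-2 (Actn2, the actin crosslinker) at 775 ± 43.5 were the highest. Myozenin-2 (Myoz2), cypher (Ldb3), nexilin (Nexn) and Pdlim5 lay between 125 and 356, and myotilin (Myot), myopalladin (Mypn), nebulette (Nebl) and Pdlim3 between 11.1 and 67.3. The M-band crosslinkers Myom1 and Myom2 measured 258 ± 19.9 and 248 ± 27.0, and Obsl1 20.7 ± 2.21. The myosin methyltransferase and chaperone genes Smyd1 and Unc45b measured 193 ± 18.5 and 75.9 ± 6.02. Among the ubiquitin ligases, Trim54 (MuRF3) measured 281 ± 33.9, Trim63 107 ± 11.6, Fbxo32 42.5 ± 13 and Trim55 (MuRF2) 38.4 ± 4.22.

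**Figure D1:**
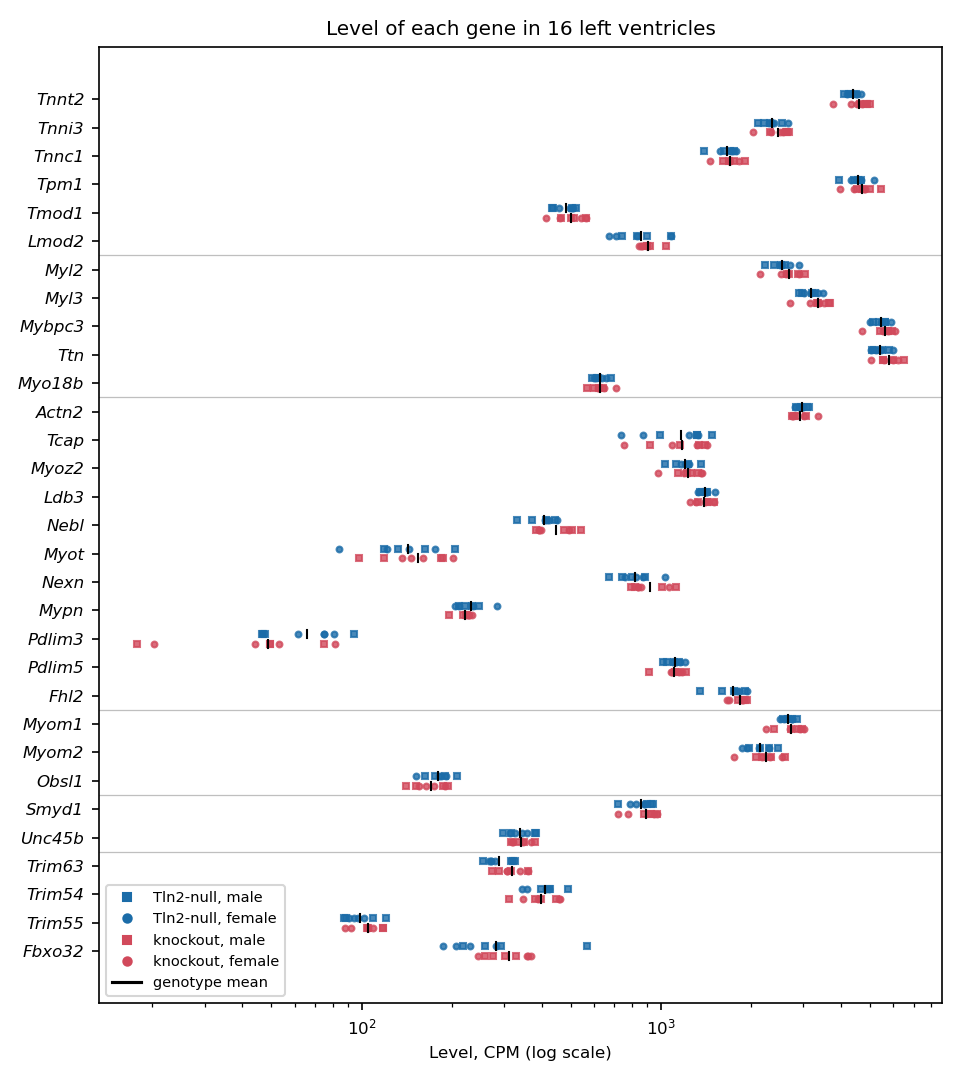
Level of each of the 31 genes in each of the 16 libraries, in CPM on a log axis, grouped by role; squares are males, circles females, blue Tln2-null and red knockout mice, and the black tick is the genotype mean. Every gene shows overlapping genotypes, and Pdlim3, Fbxo32, Myot and Tcap are the most spread out.

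The genes varied little between mice. Their median coefficient of variation was 8.99%, against 12.8% over all genes tested and 8.54% over the 2010 genes at 100 CPM or more, to which 30 of the 31 belong. For 19 genes it was under 10%, lowest for Ldb3 (5.30%), Actn2 (5.61%) and Myo18b (5.69%). It was over 15% for 4 genes: Pdlim3 (37.7%), Fbxo32 (30.7%), Myot (24.3%) and Tcap (20.9%). Pdlim3, a PDZ-LIM protein of the Z-disc, reached from 17.8 CPM in knockout replicate 4 and 20.3 CPM in knockout replicate 7 to 94.2 CPM in Tln2-null replicate 5. Fbxo32 was at 567 CPM in Tln2-null replicate 1, where the other 7 Tln2-null mice lay between 187 and 293 CPM. Myot ranged from 84.1 to 205 CPM and Tcap from 735 to 1489 CPM, each with its lowest value in Tln2-null replicate 8 and its highest in Tln2-null replicate 3.

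Low values of many genes came from few libraries. Knockout replicate 2, a female, had the lowest value of 16 for 12 of the 31 genes and lay below the mean for 27, with a median deviation of -0.15 on the log2 scale. This library also had the highest Pecam1 (322 CPM), Cdh5 (323 CPM) and Tie1 (171 CPM) of all. Its sum of 6 endothelial markers was the highest too (1274 CPM), although Kdr, Egfl7 and Emcn (296, 115 and 47.1 CPM) were not highest there. Its summed cardiomyocyte markers were the lowest (48053 CPM). The part of either marker set in the low values was not tested. Tln2-null replicate 1, a male, was lowest for 6 genes (median deviation -0.12). Knockout replicate 8 was highest for 7 genes but lowest for 4 and below the mean for 13 (median deviation 0.02). Knockout replicate 6 had the highest median deviation, 0.13, with 4 genes at their highest, and the highest share of counts in the 31 genes.

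**Figure D2:**
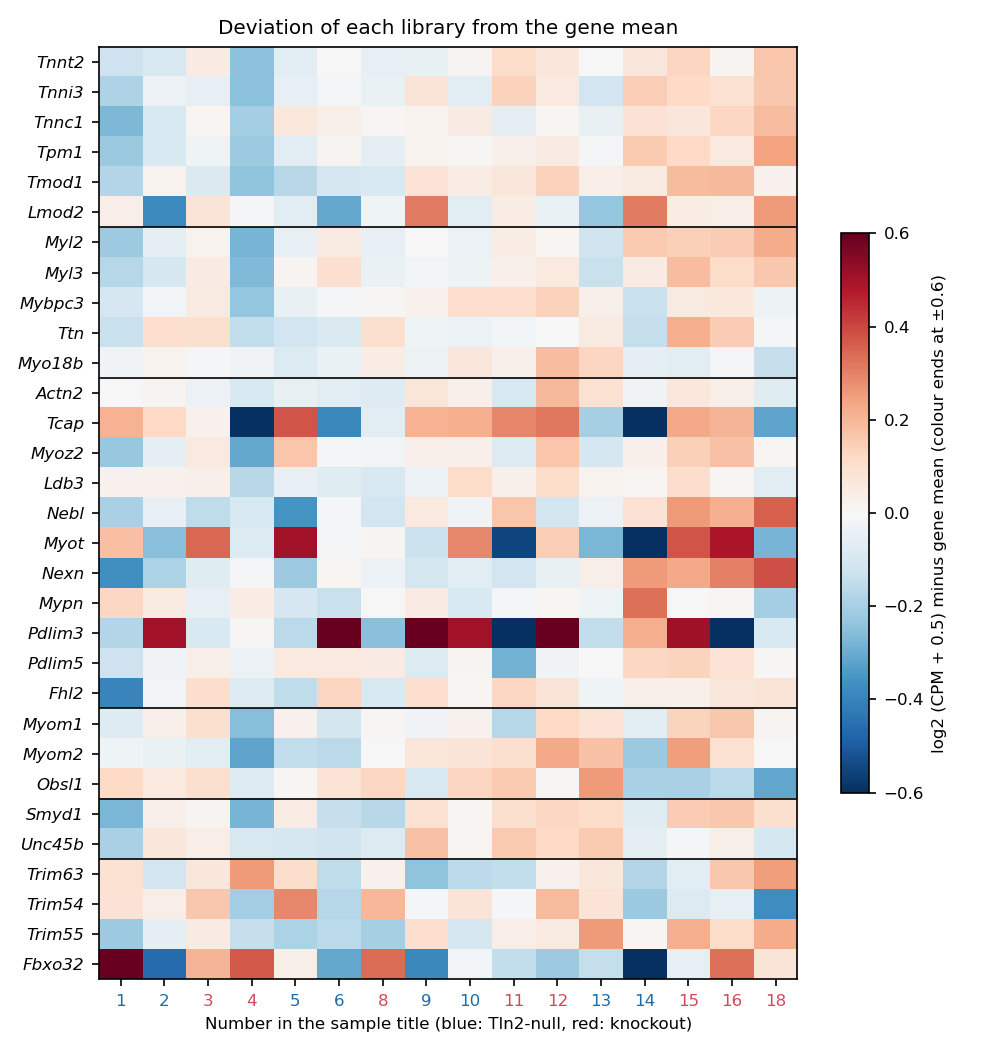
Deviation of each library from the mean of each gene, as log2(CPM + 0.5), with libraries ordered by the number that ends their sample title (blue numbers Tln2-null, red knockout) and genes ordered by role. Library 4 (knockout replicate 2) is low across the thin filament, thick filament and M-band genes. Many of these genes are low in library 1 and high in libraries 15 and 16. In library 18 the median deviation is 0.18 for thin filament, -0.01 for thick filament and -0.004 for M-band genes.

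The comparison of genotypes asks how transcripts differ when Tln1 is deleted in fibroblasts of hearts under AngII. None of the 31 genes passed the test: 0 were called by edgeR at an adjusted p under 0.05, where 0 of 13775 genes (0.0%) were called in all. At an unadjusted p under 0.05 there were 0 of the 31 against 700 genes (5.08%), and DESeq2 called 0 of the 31 and 17 genes in all. With single libraries left out, 0 to 3 of the 31 were under that p. The 3 came without knockout replicate 2, where 1200 of 13865 genes were under it. Log2 fold changes (knockout over Tln2-null) were above 0 for 24 genes and below 0 for 7, against 48.8% of all genes above 0, with a median of 0.05 against -0.003 over all genes tested. The median was 0.004 with the title number in the model (19 above and 12 below 0), 0.0004 with 1 surrogate variable (16 above and 15 below) and -0.004 without the females with Y-linked counts (15 above and 16 below). Without both libraries of reversed clock genes it was 0.05 (27 above and 4 below). No gene had all values of one genotype above all of the other (0 of 31, against 6 of 13775 genes, 0.0436%).

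These differences were measured with a median SE of 0.07 on the log2 scale, against 0.09 over all genes. The approximate 95% interval (1.96 SE to each side) lay within a 1.25-fold change in either direction for 27 of the 31 genes. It was widest for Pdlim3, with a lower bound of -0.94, and reached 0.53 for Fbxo32. The intervals of these genes, which include the variation between mice, thus extend to changes of those sizes. The multiplier of 1.96 does not allow for the small number of mice, so the intervals here and below are somewhat narrow. That of Trim63 (0.008 to 0.28) left out 0 although its unadjusted edgeR p was 0.0526.

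**Figure D3:**
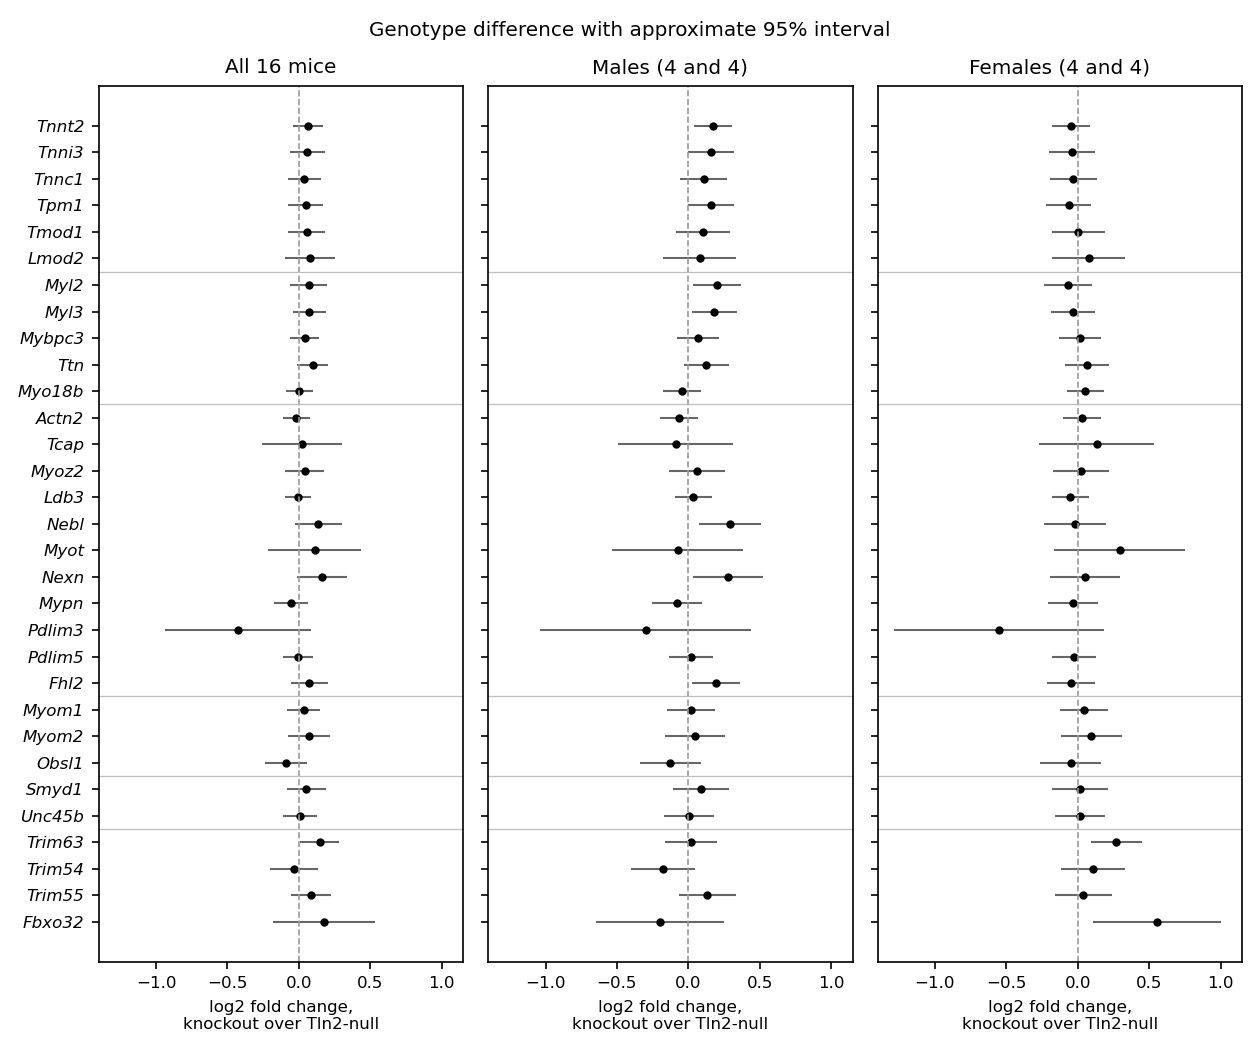
Log2 fold change of knockout over Tln2-null for each gene in all 16 mice, in males and in females (points), with approximate 95% intervals of 1.96 SE (lines). In all mice 27 of the 31 intervals lie within a 1.25-fold change, and Pdlim3, Fbxo32, Myot and Tcap have the widest.

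Trim63, the MuRF1 gene (GRCm38 chromosome 4, 134315120 to 134329629), had the lowest p of the 31. Its level was 255 CPM at lowest, 275 at the median and 325 at highest in Tln2-null mice, and 272, 312 and 361 CPM among knockouts. The knockout values were shifted upward but overlapped with the others, with a log2 fold change of 0.15 ± 0.07 (SE; unadjusted p = 0.0526, edgeR adjusted p = 0.935). Nexn, which encodes the actin-binding nexilin, was at 670, 814 and 1032 CPM (lowest, median, highest) in the Tln2-null group and 797, 850 and 1128 CPM among knockouts. Here too the groups overlapped, and the log2 fold change of 0.16 ± 0.09 became 0.06 ± 0.06 with the title number in the model. Ttn was at 5060, 5355 and 5985 CPM in the Tln2-null group and 5034, 5777 and 6490 CPM among knockouts, a log2 fold change of 0.10 ± 0.05. The lowest Ttn value of all was in a knockout mouse, replicate 2. Pdlim3 was at 46.5, 68.0 and 94.2 CPM in the Tln2-null group and 17.8, 49.4 and 81.4 CPM among knockouts, with a log2 fold change of -0.43 ± 0.26. Knockout replicates 3, 4 and 7 lay below the range of the Tln2-null mice.

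By role, all 6 thin filament genes and all 5 thick filament genes had positive log2 fold changes (medians 0.06 and 0.07), with 0 called in each. Of the 11 Z-disc genes, 6 were above and 5 below 0 (median 0.02), and the M-band genes had values of 0.03 (Myom1), 0.07 (Myom2) and -0.09 (Obsl1). Smyd1 and Unc45b had values of 0.05 ± 0.07 and 0.01 ± 0.06. Of the ligases, Trim54 had -0.04 ± 0.09, Trim55 0.09 ± 0.07 and Fbxo32 0.18 ± 0.18. Without Tln2-null replicate 1, the library with high Fbxo32, the Fbxo32 value was 0.38 ± 0.11 (unadjusted p = 0.00307, edgeR adjusted p = 0.457). Beside these genes, 8 of 9 cardiomyocyte markers had positive values (median 0.07) and 8 of 8 fibroblast markers negative ones (median -0.37), of which 3 and 6 had an unadjusted p under 0.05. Pericyte and smooth muscle markers were below 0 in 4 of 6 (median -0.26, 3 at that p). So were all 3 tested markers of the atrial list, Nppa, Myl4 and Nr2f1 (median -0.29, 0 at that p). None of these markers was called. Their part in the values of the sarcomere genes was not tested.

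Between the sexes 0 of the 31 genes passed, where 12 of 13775 genes (0.0871%) did, and 0 of the 31 had an unadjusted p under 0.05 (508 genes, 3.69%). The median log2 fold change of male over female was 0.02, with 21 of the 31 above 0, and -0.01 with 13 above 0 without knockout replicate 2. It was 0.05 with 24 above 0 without the females with Y-linked counts. Without both libraries of reversed clock genes it was 0.02 with 23 above 0. Trim55, the MuRF2 gene, had the lowest p, with 87.3, 107 and 121 CPM (lowest, median, highest) in 8 males and 88.4, 96.1 and 110 CPM in 8 females, a log2 fold change of 0.12 ± 0.07. Lmod2 was at 743, 902 and 1086 CPM in males and 670, 855 and 1086 CPM in females (0.12 ± 0.09). The sexes shared most of their range in both genes. Tcap was at 920, 1323 and 1489 CPM in males and 735, 1169 and 1426 CPM in females (0.18 ± 0.14). Smyd1 was at 720, 929 and 969 CPM in males and 718, 853 and 975 CPM in females (0.08 ± 0.07). For all 31 genes the values of the sexes overlapped, and 27 of 31 intervals lay within a 1.25-fold change.

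Within males, the genotypes were compared in 4 against 4 mice, with the spread estimated over all 16. Here 0 of the 31 genes passed, as did 0 of 13775 (0.0%), and 6 of the 31 had an unadjusted p under 0.05 against 836 genes (6.07%). The 6 were Nebl, Tnnt2, Myl2, Myl3, Fhl2 and Nexn, all with positive values. This count was 0 without knockout replicate 8 (568 of 13865 genes). It was also 0 without both libraries of reversed clock genes, of which that library is 1 (645 of 13868). It was 1 without Tln2-null replicate 1 (765 of 13870), and 3 without Tln2-null replicate 3 (726 of 13876) or knockout replicate 6 (575 of 13882). With the title number (509 of 13775) or 1 surrogate variable (363 of 13775) in the model it was 0. The count rose to 8 without knockout replicate 1 (1293 of 13895 genes) or knockout replicate 2 (930 of 13865). It was 5 without Tln2-null replicate 7 (854 of 13883) or knockout replicate 4 (844 of 13886). Without the females with Y-linked counts 22 of the 31 male values were above 0, as with all mice. Nebl, the nebulette gene, measured 371, 331, 442 and 414 CPM in the Tln2-null males and 382, 476, 506 and 544 CPM in the knockout males. The knockout values were higher in 3 of 4 mice than any Tln2-null value, a log2 fold change of 0.29 ± 0.11 (unadjusted p = 0.0163, edgeR adjusted p = 0.775).

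Tnnt2, cardiac troponin T, measured 4108, 4267, 4343 and 4483 CPM in Tln2-null males and 4636, 4841, 4898 and 5026 CPM in knockout males, a log2 fold change of 0.17 ± 0.07. Myl2 measured 2237, 2516, 2610.3 and 2399 CPM against 2639, 2684, 2876 and 3035 CPM (0.20 ± 0.09). Myl3 measured 2889, 3291, 3216 and 2963 CPM against 3365, 3321, 3691 and 3640.3 CPM (0.18 ± 0.08). In these 3 genes every knockout male was above every Tln2-null male, which held in either direction for 442 of 13775 genes (3.21%). The adjusted p was 0.775 for each of Tnnt2, Myl2 and Myl3 (edgeR), so none passed. Genotype and title number went partly together in males, with numbers 1, 5, 9 and 13 in Tln2-null and 3, 11, 15 and 18 in knockout mice. With the number in the model the values were 0.12 ± 0.06 for Tnnt2, 0.12 ± 0.07 for Myl2, 0.12 ± 0.07 for Myl3 and 0.17 ± 0.08 for Nebl. Among males, cardiomyocyte markers outside the 31 were above 0 in 8 of 9 (median 0.12, 4 at an unadjusted p under 0.05). Fibroblast markers were below 0 in 8 of 8 (median -0.41) and pericyte and smooth muscle markers in 5 of 6 (median -0.31), again with 0 called. Their part in the male values was not tested.

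Within females 0 of the 31 genes passed, as did 0 of 13775 (0.0%), and 2 of the 31, both atrophy-related ligases, had an unadjusted p under 0.05 (456 genes, 3.31%). That count was 1 without Tln2-null replicate 2 (557 of 13889 genes) or knockout replicate 2 (1081 of 13865). It was also 1 without knockout replicate 3 (380 of 13885) or 7 (336 of 13883), and 3 without knockout replicate 5 (414 of 13886). Of the 31 values 18 were above and 13 below 0 (median 0.01), which went from 11 above 0 without knockout replicate 7 to 24 without knockout replicate 2. Trim63 measured 278, 271, 271 and 267 CPM in Tln2-null females and 361, 307, 307 and 338 CPM in knockout females. All 4 knockout females were above all 4 Tln2-null females, which held in either direction for 284 of 13775 genes (2.06%). The log2 fold change was 0.27 ± 0.09 (unadjusted p = 0.00952, edgeR adjusted p = 0.9998), and 0.28 ± 0.09 with the title number in the model. Fbxo32 measured 207, 231, 282 and 187 CPM in Tln2-null females and 368, 361, 245 and 359 CPM in knockout females. Knockout values were higher apart from replicate 5, which lay inside the Tln2-null range, and the log2 fold change was 0.55 ± 0.23 (unadjusted p = 0.0271). Of the 4 knockout females, 3 had Y-linked counts (replicates 3, 5 and 7), as did Tln2-null replicate 4. Without these females, 1 knockout female is left, replicate 2, the library that was lowest for 12 of the 31 genes, and it is assumed to vary like the other groups. In that fit 4 of the 31 values were above and 27 below 0 (median -0.18), with 4 at an unadjusted p under 0.05 (713 of 14306 genes) and 0 called. Tnnt2 had -0.24 ± 0.10, Myl2 -0.31 ± 0.13 and Ldb3 -0.22 ± 0.10, while the log2 fold change was 0.41 ± 0.16 for Trim63 (edgeR adjusted p = 0.943) and 0.70 ± 0.38 for Fbxo32 (edgeR adjusted p = 0.973).

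Pdlim3 measured 75.0, 80.9, 74.8 and 61.2 CPM in Tln2-null females and 53.0, 44.1, 81.4 and 20.3 CPM in knockout females, a log2 fold change of -0.55 ± 0.38. Myot, the actin-bundling myotilin, measured 121, 144, 177 and 84.1 CPM against 136, 146, 160.0 and 203 CPM (0.29 ± 0.23). In both genes the genotypes overlapped in females.

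Whether the genotype difference depended on sex was tested by the interaction, which 0 of the 31 genes and 0 of 13775 (0.0%) passed, with 3 of the 31 and 588 genes (4.27%) at an unadjusted p under 0.05. Values are the male difference less the female difference. Fbxo32 had the lowest p at -0.75 ± 0.32 (unadjusted p = 0.0324, edgeR adjusted p = 0.980). Its difference was -0.20 ± 0.23 in males, where Tln2-null replicate 1 is the high value, and 0.55 ± 0.23 in females. Without that mouse the male difference was 0.18 ± 0.15 and the interaction -0.38 ± 0.21 (unadjusted p = 0.0915). Tnnt2 had 0.22 ± 0.10, Myl2 0.27 ± 0.12 and Nebl 0.31 ± 0.15. The count of 3 was 0 without Tln2-null replicate 1 (419 of 13870 genes) or 8 (318 of 13862). It was also 0 without knockout replicate 3 (415 of 13885) or 6 (594 of 13882) and with 1 surrogate variable (457 of 13775). The count was 1 without Tln2-null replicate 4 (587 of 13859) or knockout replicates 2 (769 of 13865) or 4 (551 of 13886). Without both libraries of reversed clock genes it was 1 too (311 of 13868). Leaving out Tln2-null replicate 5 gave 5 (754 of 13882), and leaving out knockout replicate 1 gave 6 (809 of 13895). When all 4 females with Y-linked counts were left out it was 10 (1037 of 14306 genes), all with positive values and 0 called, and the median of the 31 was 0.28 against 0.05 with all mice. There too knockout replicate 2 is the only knockout female. The median SE of the interaction was 0.13, and 10 of the 31 intervals lay within a 1.25-fold change.

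The sample titles end in a number from 1 to 18, whose meaning no source used here states. It was tested as a linear term beside genotype and sex, since its mean was 7.5 in Tln2-null and 10.9 in knockout mice. For this term 5 of the 31 genes passed, all higher with the number, where 874 of 13775 genes (6.34%) passed in all and 407 (2.95%) were higher. At an unadjusted p under 0.05 there were 12 of the 31 against 3330 genes (24.2%). The 5 were Nexn and Nebl of the Z-disc, Tpm1 and Tmod1 of the thin filament and the ligase gene Trim55. All 5 had positive slopes within each genotype.

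Nexn (GRCm38 chromosome 3, 152236982 to 152266350) was at 670, 812 and 871 CPM (lowest, median, highest) in the 8 lower numbers and 797, 947 and 1128 CPM in the 8 upper ones. The 4 highest values were those of numbers 14, 15, 16 and 18, and both genotypes were among them. The slope was 0.031 ± 0.006 log2 units per number (edgeR adjusted p = 0.00848), or 1.44-fold over the range of numbers. Tpm1 (chromosome 9, 67022590 to 67049672) was at 3960, 4429 and 4683 CPM in the lower and 4577, 4794 and 5456 CPM in the upper numbers, a slope of 0.020 ± 0.004 (adjusted p = 0.0167). The lower and upper numbers shared only a narrow range for this gene.

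Nebl (chromosome 2, 17342673 to 17734949) was at 331, 395 and 442 CPM in the lower and 393, 463 and 544 CPM in the upper numbers, a slope of 0.025 ± 0.006 (edgeR adjusted p = 0.0281). Trim55 (chromosome 3, 19644344 to 19692584) was at 87.3, 91.5 and 109 CPM against 94.6, 107 and 121 CPM, a slope of 0.021 ± 0.005 (edgeR adjusted p = 0.0329). Tmod1 (chromosome 4, 46038940 to 46116032) was at 415, 459 and 520.2 CPM against 499.9, 512 and 562 CPM, a slope of 0.019 ± 0.005 (edgeR adjusted p = 0.0410). Of Tmod1's exon bases, 32.6% overlap Tstd2 on the other strand (19.9 CPM), and no source used here says whether strand was used in counting. Over the range of numbers, Nebl, Trim55 and Tmod1 were higher by 1.35-fold, 1.28-fold and 1.25-fold.

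**Figure D4:**
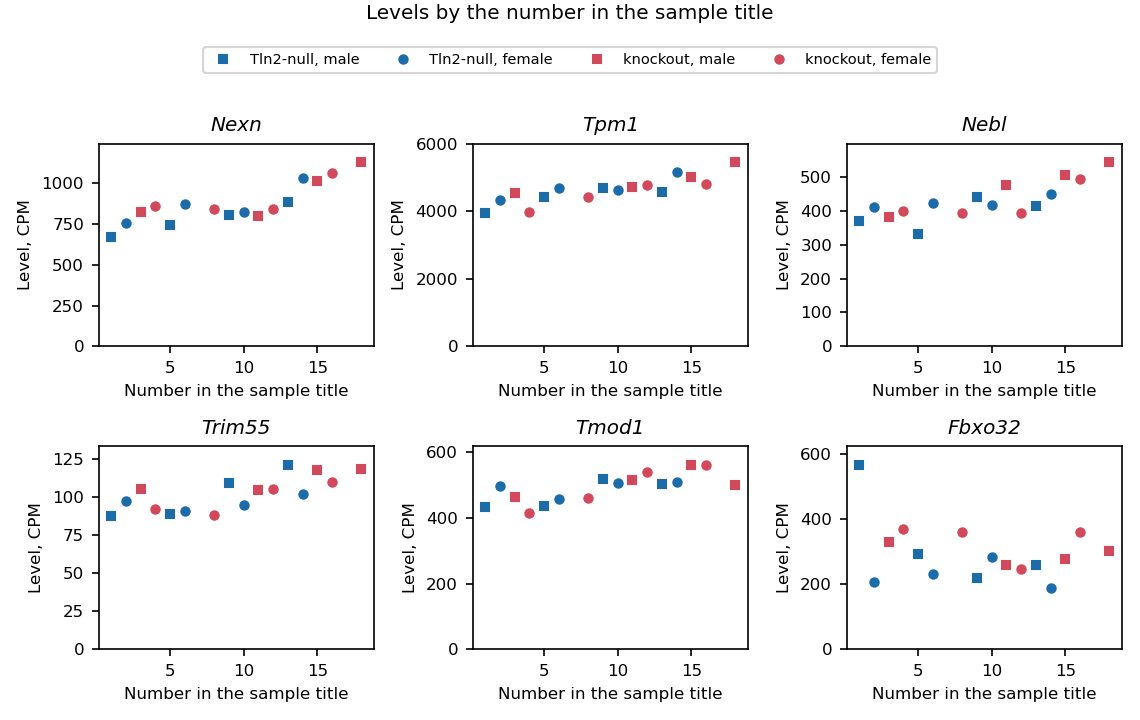
Level in CPM against the number in the sample title for the 5 genes that passed for the number and for Fbxo32, which did not; each point is 1 mouse, squares male and circles female, blue Tln2-null and red knockout. Nexn, Tpm1, Nebl, Trim55 and Tmod1 are higher at the upper numbers in both genotypes, and Fbxo32 shows its single high value at number 1.

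Among the rest, Tnnt2, Tnni3, Tnnc1, Myl2, Myl3 and Smyd1 had positive slopes at an unadjusted p under 0.05 that did not pass (adjusted p between 0.0521 and 0.151, edgeR), while Fbxo32 had -0.037 ± 0.016 (adjusted p = 0.17). Ttn, Mybpc3, Actn2 and Ldb3 had slopes of 0.004 to 0.005. Like the count over all genes, the count of 5 changed with the libraries left out. It was 0 of 31 without Tln2-null replicate 8 and knockout replicate 8, the libraries with reversed clock genes and the numbers 14 and 18 (187 of 13868 genes, 1.35%). There the slopes were 0.025 for Nexn, 0.017 for Tpm1, 0.023 for Nebl, 0.023 for Trim55 and 0.025 for Tmod1, with adjusted p from 0.0555 to 0.116. Without the 4 females with Y-linked counts it was 1, Nexn (219 of 14306 genes, 1.53%). With DESeq2 it was 9 (1398 genes, 10.1%), and with single libraries left out it went from 2 to 8. The lowest, 2, came without Tln2-null replicates 1 or 8, or knockout replicates 2 or 8, where 229 to 523 genes passed. The highest, 8, came without Tln2-null replicate 2 (989 genes) or 7 (1162 genes). The summed cardiomyocyte markers had a correlation of 0.512 with the number over the 16 libraries, the skeletal muscle markers 0.620 and the fibroblast markers -0.26. The skeletal muscle sum was only 14.6 to 24.9 CPM, with Tnnt1 alone at 11.2 to 20.8 CPM. The part of these marker sets in the slopes was not tested.

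The 4 ubiquitin ligase genes were also compared with one another across mice, on log2(CPM + 0.5), together with Foxo1 and Foxo3, which encode FOXO factors, and Klf15, a glucocorticoid-induced factor of muscle. In all 12 relations were computed, with two-sided permutation tests of 100000 resamples and Benjamini-Hochberg adjustment. Trim63 and Fbxo32 were related with r = 0.653 (permutation p = 0.00515, adjusted 0.0309) and rho = 0.785 (permutation p = 0.00047, adjusted 0.00564, n = 16). Mice with low Trim63 had low Fbxo32 in both genotypes: r was 0.676 in Tln2-null, 0.616 in knockout, 0.50 in males and 0.805 in females, and 0.726 and 0.630 in the lower and upper 8 numbers. Without the mice farthest from the Trim63 median, Tln2-null replicate 5 and knockout replicate 2, r was 0.590 (permutation p = 0.0221). The adjusted p of r was above 0.05 without Tln2-null replicate 4 (0.0583), 5 (0.0689) or 8 (0.0543) or knockout replicate 2 (0.0629), while that of rho was below 0.05 in each of these.

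Fbxo32 and Klf15 were related with r = 0.759 (permutation p = 0.00054, adjusted 0.00648), whereas rho = 0.60 did not pass after adjustment (permutation p = 0.0156, adjusted 0.0934). Tln2-null replicate 1 was highest for both, with Klf15 at 145 CPM against at most 130 CPM in the others. Without it and Tln2-null replicate 8, the mice farthest from the Fbxo32 median, r was 0.536 (permutation p = 0.0472). Without Tln2-null replicate 1 alone r was 0.626 and did not pass (adjusted permutation p = 0.0740). Within groups r was 0.814 in Tln2-null, 0.736 in knockout, 0.747 in males and 0.893 in females, and 0.775 and 0.684 in the lower and upper numbers. Fbxo32 and Foxo1 had r = 0.593 (permutation p = 0.0169, adjusted 0.0676), which did not pass and rested on the same mice, being 0.329 (permutation p = 0.251) without them. Trim63 with Klf15 had r = 0.260 (permutation p = 0.330) and with Foxo1 0.186 (permutation p = 0.493). Foxo3 had r = -0.077 with Trim63 and 0.497 with Fbxo32, neither of which passed. Trim54 and Trim55, the other MuRF genes, had r between -0.334 and 0.191 with Trim63, Fbxo32 and each other, none of which passed. In Tln2-null and knockout mice, Trim63 had r = 0.689 and -0.561 with Trim54, and -0.181 and -0.052 with Trim55. In the lower and upper numbers, it had r = 0.114 and -0.297 with Trim54, and -0.487 and 0.656 with Trim55. The differences between these groups were not tested. Of Trim54's exon bases, 26.6% overlap an antisense gene.

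**Figure D5:**
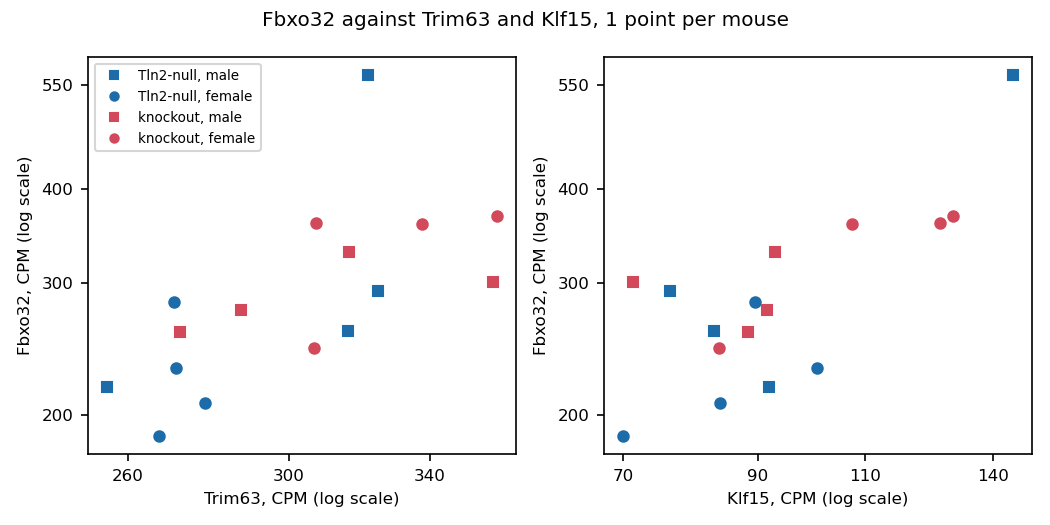
Fbxo32 against Trim63 (left) and against Klf15 (right), in CPM on log axes, 1 point per mouse; squares are males, circles females, blue Tln2-null and red knockout. Fbxo32 is higher where Trim63 is higher (r = 0.653), and Tln2-null replicate 1 is at the upper right in the plot against Klf15.

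Other genes of the same system gave the following counts. Of 38 further sarcomere and Z-disc genes, 34 were tested and 0 passed for genotype, with 13 values above and 21 below 0 (median -0.04). The lowest p was that of filamin C (Flnc), a crosslinker of the Z-disc, whose level was 576 ± 57.7 CPM in the 8 knockouts (SD) and 693 ± 108 CPM in the 8 others, with a log2 fold change of -0.27 ± 0.09 (edgeR adjusted p = 0.755). For the title number 5 of the 34 passed, 4 of them higher. Among them leiomodin-3 (Lmod3, 0.062 ± 0.007 per number), Synpo2l (0.077 ± 0.015) and Ankrd1 (0.058 ± 0.014) were higher with the number.

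Of 28 tested FOXO, ubiquitin and autophagy genes 0 passed for genotype (median 0.01), and 3 passed for the title number: Cul1 and Fbxo40, parts of ubiquitin ligase complexes, were higher and Foxo1 was lower (-0.036 ± 0.008). Of 15 sarcomere chaperones 0 passed for genotype (median -0.03), and 1, the glucocorticoid-induced Fkbp5, passed for the number and was lower (-0.094 ± 0.020). Of 14 tested transcription factors of sarcomere genes 0 passed for genotype (median -0.01) and 4 for the number. Mef2a and Mef2c were higher (0.023 ± 0.006 and 0.022 ± 0.006), and Hand2 and Tbx5 were lower (-0.056 ± 0.010 and -0.052 ± 0.013). Over all genes 874 of 13775 (6.34%) passed for the number, and these list counts were taken with all 16 libraries. Both libraries of reversed clock genes lay below all others for Fkbp5, Hand2 and Tbx5, and above all others for Lmod3 and Fbxo40. For Synpo2l, Ankrd1, Cul1, Foxo1, Mef2a and Mef2c this was not so.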

How the data were processed

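Total RNA of the left ventricle was extracted with TRIzol and a column kit and made into directional libraries, per the labels' protocols. DRAGEN, DESeq2 and mm10 are named in the submitters' processing notes without roles or versions. The annotation was not given in the sources used here, nor whether counting used strand. The deposited table holds whole counts per gene symbol, which were used for every test. The deposited normalized signal, the authors' counts divided by 1 size factor per library as its values show, served as an alternative only.

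The groups and sexes come from the labels, and replicates were numbered in record order. No 2 libraries were duplicates (120 pairs). Counts were tested with edgeR 4.0.16 (R 4.3.3) by quasi-likelihood after filterByExpr and TMM scaling, over 13775 genes with Benjamini-Hochberg adjustment and a threshold of 0.05. The SE was worked back from the fold change and F and is approximate. A count of 3 corresponds to 0.151 to 0.268 CPM. Alternatives used DESeq2 1.42.0, limma 3.58.1 (voom), sva 3.50.0, other filters, covariates and left-out libraries. The fits were run on simulated data in which all genes had the same spread and the planted differences were larger than most reported here. That run does not check whether differences as small as those reported here would be found.

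All 31 genes are named. Those that passed a test and the 4 of lowest p between genotypes and between sexes are given with values by library in groups of 4, and with the lowest, median and highest in groups of 8. Other lists are described by up to 4 genes of lowest p; 1 gene of these lists is not reported here. The genes and lists were chosen with earlier results of these data known. Positions are RefSeq GRCm38.p6.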

Additional observations from a re-analysis of the deposited data

Results flagged for a closer look

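The spread within each genotype of 8 mice was examined for each gene (62 groups), and in 4 of them 1 library was separated from the rest by more than Dixon's critical value for the gap over the range, a limit that chance passes in about 5% of groups. Lmod2 was at 1044 CPM in knockout replicate 8, with the next highest knockout mouse at 923 CPM. Mypn was at 196 CPM in the same library, below the next lowest knockout mouse at 218 CPM. Pdlim5 was at 913 CPM in knockout replicate 4, where the next lowest was 1085 CPM. Fbxo32 was at 567 CPM in Tln2-null replicate 1, where the next highest Tln2-null mouse was at 293 CPM.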

How the results depend on the processing

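The counts of 0 of the 31 genes for genotype, sex, genotype within each sex and the interaction were also 0 under every alternative run. Of 868 genotype values over the 31 genes and the alternatives, 58 changed sign, in 18 genes, none of them past the threshold. The count for the title number was 9 with DESeq2, 0 without both libraries of reversed clock genes and 1 without the females with Y-linked counts, and from 2 to 8 with single libraries left out; fewer samples were tested in the last 3, and the cause of the difference with DESeq2 was not tested. The correlation of Trim63 and Fbxo32 was 0.620 without the heat shock library (adjusted permutation p = 0.0689) and 0.610 to 0.749 with single libraries left out, and did not pass without 4 of the 16, that library included. That of Fbxo32 and Klf15 was 0.626 to 0.830 with single libraries left out, the lowest without Tln2-null replicate 1, where it did not pass (adjusted permutation p = 0.0740). That of Fbxo32 and Foxo1 was 0.682 without both libraries of reversed clock genes (adjusted permutation p = 0.0348) and 0.26 to 0.700 with single libraries left out, the lowest again without Tln2-null replicate 1. No paired analysis was possible because the replicate numbers were given in record order and the numbers in the titles are not shared between mice. With 4 mice per sex and genotype, the median SE was 0.09 on the log2 scale. The lowest count of any of the 31 genes in a library was 297, that of Pdlim3. The part of depth in the spread was not tested.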
